A study of Mus musculus with 9 samples.

Results

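The Kruppel-like factors examined here are 10 genes, Klf2, Klf3, Klf4, Klf6, Klf7, Klf9, Klf10, Klf11, Klf12 and Klf13, taken by symbol from a table of 43432 mouse genes. All 10 passed the filter on low counts, as did 13685 genes in all. RNA was sequenced from regulatory T cells (Tregs), CD4 T cells marked by the factor Foxp3, which were sorted from C57BL/6 mice. They were activated in culture with beads coated with antibodies to CD3 and CD28, grown with 2000 U/ml interleukin-2 and taken on day 4. The 4 Ezh2-deficient libraries carry the genotype Foxp3-Cre-GFP, R26-LSL-RFP and Ezh2-fl/fl. The 5 WT libraries carry the same Foxp3-Cre-GFP and R26-LSL-RFP alleles with Ezh2-+/+, except WT replicate 1, which is Ezh2-fl/+. Cre in both groups is driven by Foxp3, so deletion is directed to Foxp3-expressing cells. The comparison asks what the loss of Ezh2, the enzyme of Polycomb repressive complex 2 that methylates histone H3 at repressed genes, changes in the RNA of activated Tregs.

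Kruppel-like factors are transcription factors with a set of C2H2 zinc fingers at the carboxyl end, which they share with the Sp factors and which bind CACCC boxes and GC-rich DNA. They differ in the parts that recruit partners. Klf2, Klf4, Klf6 and Klf7 are known to act largely as activators through histone acetyltransferases, Klf3, Klf8 and Klf12 as repressors through the corepressor CtBP, and Klf9, Klf10, Klf11, Klf13 and Klf16 through the corepressor Sin3. In T cells Klf2 is known as a factor of quiescence that maintains the homing gene S1pr1, and its transcript falls on activation through the antigen receptor.

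The promoters of 9 of the 10 genes were found in RefSeq (build GRCm38.p6), all but that of Klf10. In the 250 bases before the start, 6 of the 9 held CACCC on either strand, against 52.0% of 32851 mouse promoters, and 7 of 9 held GGGCGG, a GC box, against 32.7%. Their GC content was 48.0 to 78.4%, with a median of 52.4% over all promoters. Klf3, with 5 matches of CACCC or its complement GGGTG, and Klf7, with 3, were among the 6.92% of promoters with at least 3. Klf9 had 1 match, which is also the median over all promoters, and Klf6, Klf4 and Klf11 had 0. Klf2, Klf12 and Klf13, which were not called between the groups, also had 1 match each. That of Klf2 lies in bases not printed. Any link of the box to a change between the groups was not tested. The stretches of Klf3, Klf7 and Klf9 below are shown because these genes rose in Ezh2-deficient Tregs and hold the box, with each match in capitals; 2 of the 5 matches of Klf3 and all 3 of Klf7 lie in what is printed. The stretch of Klf2 is shown for a sequence of the type MEF2 factors bind, spelled by its capitals, which reads alike on both strands. MEF2 factors are known to drive Klf2 in endothelial cells. That sequence begins 118 bases before the RefSeq start of Klf2 and was found in 13 of 32851 promoters. The 118 bases include 29 that lie in the GENCODE exon and are not printed. Bases that GENCODE places in an exon of the gene were left off, and a match is a description, not a site.
Klf3 (chr5:64803271-64803387, plus strand): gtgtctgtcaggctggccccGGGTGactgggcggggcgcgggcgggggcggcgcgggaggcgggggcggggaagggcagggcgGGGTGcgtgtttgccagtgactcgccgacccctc
Klf7 (chr1:64121492-64121639, minus strand): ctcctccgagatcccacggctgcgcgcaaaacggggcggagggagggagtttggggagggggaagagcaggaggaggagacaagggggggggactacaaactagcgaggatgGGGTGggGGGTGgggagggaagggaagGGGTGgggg
Klf9 (chr19:23140976-23141225, plus strand): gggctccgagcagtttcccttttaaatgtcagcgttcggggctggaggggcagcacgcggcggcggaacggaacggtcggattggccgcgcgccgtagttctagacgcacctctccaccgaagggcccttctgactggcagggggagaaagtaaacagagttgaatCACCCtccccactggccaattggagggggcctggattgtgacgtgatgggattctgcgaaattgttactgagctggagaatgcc
Klf2 (chr8:72318812-72319032, plus strand): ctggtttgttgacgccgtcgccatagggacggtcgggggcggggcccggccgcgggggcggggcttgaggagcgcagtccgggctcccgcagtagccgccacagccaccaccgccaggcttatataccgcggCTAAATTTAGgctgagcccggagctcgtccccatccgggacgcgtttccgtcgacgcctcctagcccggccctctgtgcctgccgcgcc

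Total counts ranged from 33718125 to 62201921 over the Ezh2-deficient libraries and from 32469450 to 59796319 over the WT libraries. Ezh2 itself was at 161 ± 6.49 CPM (SD, n = 4), the count of a gene scaled to the size of the library, against 296 ± 50.5 CPM (SD, n = 5), and WT replicate 1 stood at 268 CPM. The summed level of 7 Treg markers, Foxp3, Il2ra and Cd4 among them, was 10511 to 11352 CPM with Ezh2 deleted and 9515 to 10328 CPM in WT cells. In the same order, markers of CD8 and NK cells summed to 18.2 to 166 and 26.7 to 165 CPM, of B cells to 12.6 to 17.8 and 17.5 to 20.5 CPM, of myeloid cells to 23.3 to 30.8 and 14.1 to 20.4 CPM, and of erythroid cells to 5.41 to 19.4 and 2.17 to 7.74 CPM. The myeloid sums, like those of Tregs, did not overlap between the groups. Of the Treg markers Foxp3 rose. Il2ra, at 6108 CPM in Ezh2-deficient against 5649 CPM in WT cells, made up most of the Treg sums and did not pass. Cd4, at 413 against 470 CPM, was lower in every Ezh2-deficient than in any WT library and did not pass (edgeR adjusted p = 0.0644). Of the B cell markers Cd79a fell, at 0.885 against 2.33 CPM, as did Blk, at 0.156 against 0.603 CPM. Cd79b, at 12.2 against 11.4 CPM, made up most of the B cell sums and did not pass. Of the erythroid markers Hba-a1 rose. Cd8a was uneven within both groups, at 0.361 to 79.9 and 1.98 to 97.6 CPM. Within the myeloid list, Itgam and Adgre1 rose, while Lyz2, Csf1r and Mpo were at most at 0.130 CPM and Cd14 at most at 0.476 CPM in any library. Itgam, at 21.2 against 12.2 CPM, made up most of the myeloid sums. Fcer1g was at 0.423 against 1.33 CPM and Cd68 at 2.73 against 2.67 CPM, and neither passed. A mean over 22 hypoxia response genes set 4 libraries, Ezh2-deficient replicates 2 and 3 and WT replicates 3 and 5, at 5.12 to 5.23 log2 CPM apart from the other 5, at 6.22 to 6.52. None of these 22 genes passed edgeR's test between the groups, with 0 at an unadjusted p under 0.05 and 0 in DESeq2 and in limma-voom. In bulk RNA, fewer cells of a type and less RNA per cell cannot be told apart.

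Per length of exon, Klf2 and Klf6 were the most abundant of the 10 in WT Tregs. That length merges the exons of all annotated transcripts of a gene, and is 1847 bases for Klf2, 4391 for Klf6 and 7531 for Klf13. In CPM, without the length, their WT means were 139, 283 and 241, with Klf2 below Klf13. Klf2 was at 75.2 ± 17.9 CPM per kb (SD, n = 5) and Klf6 at 64.4 ± 12.01 CPM per kb, with ranges that overlapped. Klf13 followed at 32.03, Klf10 at 15.0, Klf7 at 10.8, Klf11 at 7.44, Klf3 at 4.90, Klf9 at 3.35, Klf4 at 1.54 and Klf12 at 0.366 CPM per kb. The neighbours Klf7 and Klf11, Klf11 and Klf3, and Klf3 and Klf9 overlapped in their ranges, and the other neighbours did not. In Ezh2-deficient Tregs the order began with Klf6, at 103.8 ± 11.6 CPM per kb (SD, n = 4), and Klf2 came next at 63.5 ± 8.63 CPM per kb, without overlap. Klf7, at 17.6 CPM per kb, stood beside Klf10, at 15.7, and Klf3 and Klf9, at 10.8 and 7.51, stood above Klf11, at 5.88, although the ranges of Klf9 and Klf11 overlapped.

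**Figure D1:**
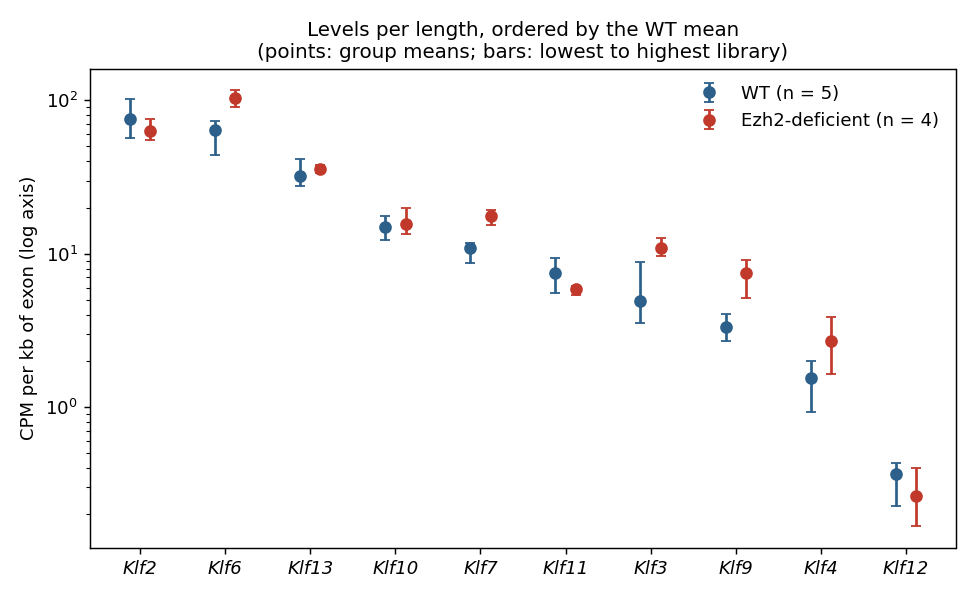
CPM per kb of exon on a log axis for each of the 10 genes, with the group mean as a point and the lowest and highest library as a bar, WT in blue (n = 5) and Ezh2-deficient in red (n = 4). Klf2 leads in WT at 75.2 CPM per kb and Klf6 in Ezh2-deficient Tregs at 103.8 CPM per kb, and Klf12 is lowest in both groups.

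Summed over the 10 genes, the level was 264 ± 14.5 CPM per kb in Ezh2-deficient and 215 ± 13.8 CPM per kb in WT Tregs, with ranges of 246 to 276 and 193 to 227. Klf6 made up 39.3 ± 2.81% of that sum in Ezh2-deficient and 30.0 ± 5.58% in WT Tregs. Klf2 made up 24.1 ± 3.48% and 34.9 ± 7.52%. The share of Klf6 was 35.5 to 42.2% against 20.5 to 34.4%, and that of Klf2 21.9 to 29.3% against 29.0 to 47.2%, so that the groups were apart for Klf6 and overlapped slightly for Klf2. These shares describe the mixture of transcripts and were not tested.

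Klf3, Klf6, Klf7 and Klf9 were higher in Ezh2-deficient Tregs, by 1.61 to 2.24-fold, and no member was called lower. The 4 called higher of 10 stand beside 13.1% of all tested genes called higher, and the 0 called lower beside 8.8%. At an unadjusted p under 0.05, 5 members were higher and 1 lower. DESeq2 called 5 higher and 0 lower, and limma-voom 4 and 0. The groups did not overlap for the same 4 members, where 21.2% of all tested genes did not overlap. The median log2 fold change of the 10 was 0.42, against 0.00 over all genes tested, and 3 of the 6 others lay above 0 and 3 below. By known partner, 2 of the 4 activators, 1 of the 2 CtBP-binding repressors and 1 of the 4 Sin3-binding factors rose.

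**Figure D2:**
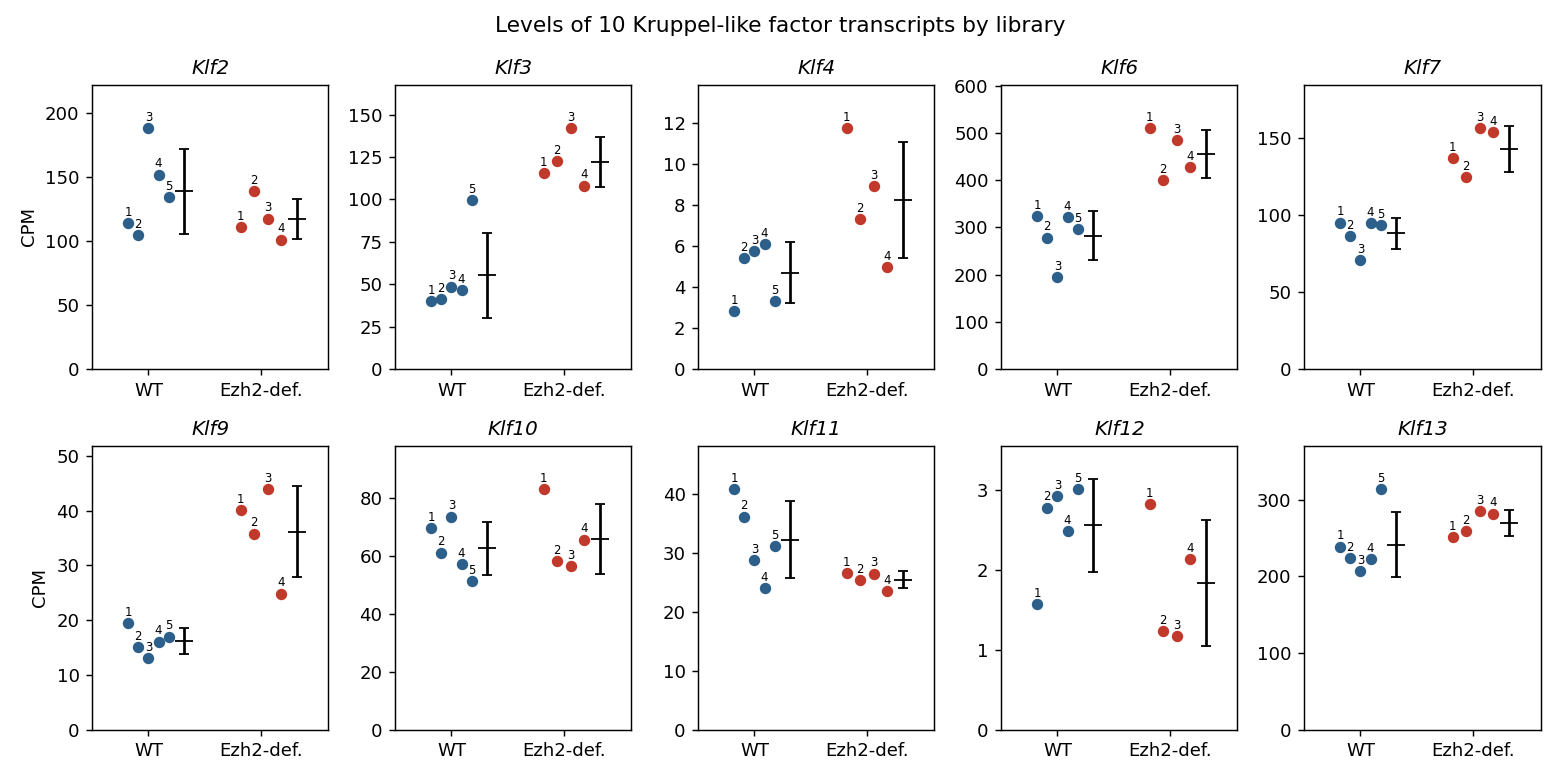
CPM (linear axes from 0) of each of the 10 genes in every library, numbered by replicate, WT in blue and Ezh2-deficient in red, with the group mean ± SD in black. The groups are apart for Klf3, Klf6, Klf7 and Klf9, and WT replicate 5 lies far above the other WT libraries for Klf3, at 99.7 CPM.

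Klf2 (ENSMUSG00000055148; chromosome 8, 72319033 to 72321656) stood at 111, 139, 118 and 101 CPM in Ezh2-deficient replicates 1 to 4, in order. In WT replicates 1 to 5 it was at 114, 105, 188, 152 and 134 CPM. The groups overlapped, and the highest values were those of WT replicates 3 and 4. The means of 117 ± 15.9 and 139 ± 33.1 CPM differed by a log2 fold change of -0.24 (95% interval -0.59 to 0.10, SE 0.16), which did not pass edgeR's quasi-likelihood test (adjusted p = 0.288). Without WT replicate 3 the change was -0.14.

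Klf4, a factor of quiescent T cells, monocytes and stem cells (chromosome 4, 55527143 to 55532466), was weakly expressed, with 296 to 417 counts per Ezh2-deficient and 168 to 231 per WT library. It stood at 11.8, 7.33, 8.91 and 4.97 CPM in Ezh2-deficient replicates 1 to 4 and at 2.84, 5.43, 5.77, 6.11 and 3.33 CPM in WT replicates 1 to 5. Ezh2-deficient replicates 1 to 3 lay above every WT library, and replicate 4 lay within the WT range. The log2 fold change was 0.81 (95% interval 0.20 to 1.43) and missed the threshold (adjusted p = 0.0578). Without Ezh2-deficient replicate 4 it was 0.98 (adjusted p = 0.0268), and DESeq2 also called it (0.80, adjusted p = 0.0243). The adjusted p was 0.0243 to 0.192 over all alternatives. The change was 0.57 without Ezh2-deficient replicate 1. The myeloid marker sums given above were higher in the same group, while Lyz2, Csf1r and Cd14 were near 0. Ezh2-deficient replicate 1, with the highest Klf4, had the lowest myeloid sum of its group, 23.3 CPM. Any part of myeloid cells in the Klf4 values was not tested.

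Klf6, an early response factor that is known to rise on cell stress (chromosome 13, 5861482 to 5870394), reached 510, 400, 485 and 427 CPM with Ezh2 deleted. In WT cells it measured 323, 279, 194, 321 and 296 CPM. Every Ezh2-deficient library lay above every WT library, and WT replicate 3 was the lowest. The level was 456 ± 50.9 against 283 ± 52.7 CPM, a 1.61-fold difference (0.69 ± 0.14 SE on the log2 scale, edgeR adjusted p = 0.00465). The change was 0.55 to 0.80 over 19 alternatives, all of which called it.

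Klf7, a widely expressed factor known for neuronal development (chromosome 1, 64029447 to 64122282), was at 137, 125, 157 and 154 CPM in Ezh2-deficient and at 95.2, 86.4, 70.9, 94.8 and 93.5 CPM in WT libraries. No library of the groups overlapped, and 4 of the 5 WT libraries lay within 86.4 to 95.2 CPM. The means of 143 ± 14.8 and 88.2 ± 10.3 CPM gave a 1.62-fold rise (log2 fold change 0.70, SE 0.10, adjusted p = 0.00074), called in all 19 alternatives (0.60 to 0.76). Its exons overlap those of Gm26649 and Gm13748 on the other strand, which had 150 and 5 counts over the 9 libraries, and strand settings of the counting are not given.

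Klf3 (ENSMUSG00000029178; chromosome 5, 64803388 to 64832901), which recruits CtBP and is known to restrain the same CACCC boxes that other members activate, reached 115, 122, 142 and 108 CPM with Ezh2 deleted. In WT cells it measured 40.0, 41.0, 48.5, 46.5 and 99.7 CPM. The groups did not overlap, but WT replicate 5 stood close to the Ezh2-deficient libraries and apart from the other WT libraries. The mean of 122 ± 14.6 against 55.1 ± 25.2 CPM was a 2.21-fold rise (log2 fold change 1.14, SE 0.26, adjusted p = 0.0131). Without WT replicate 5 it was 1.46 (adjusted p = 1.4e-05), and the call held in all 19 alternatives (1.03 to 1.47, adjusted p of up to 0.0495). WT replicate 5 also had the highest Klf13 of all libraries. Gm20033, on the other strand, shares exons with Klf3 and had 207 counts over the 9 libraries.

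Klf12, the other CtBP-binding repressor (chromosome 14, 99870632 to 100284679), had the lowest level, with 39 to 131 counts per Ezh2-deficient and 90 to 161 per WT library. It was at 2.82, 1.23, 1.17 and 2.13 CPM in Ezh2-deficient replicates 1 to 4 and at 1.57, 2.78, 2.93, 2.49 and 3.01 CPM in WT replicates 1 to 5. Ezh2-deficient replicates 2 and 3 lay below every WT library, and replicates 1 and 4 within the WT range. The log2 fold change of -0.47 did not pass (95% interval -1.14 to 0.20, adjusted p = 0.29). Without Ezh2-deficient replicate 1 it was -0.76, again without a call. The hypoxia score was low in Ezh2-deficient replicates 2 and 3 and in WT replicates 3 and 5. These WT libraries had the highest Klf12 of all, at 2.93 and 3.01 CPM. With the score as a covariate Klf12 was not called, and the part of the score in the Klf12 values was not tested.

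Klf9, a factor known to be induced by glucocorticoid and thyroid hormone (ENSMUSG00000033863; chromosome 19, 23141226 to 23168134), had the smallest p of the 10. Its level was 40.0, 35.8, 43.9 and 24.8 CPM in Ezh2-deficient replicates 1 to 4 and 19.4, 15.1, 13.02, 16.1 and 17.0 CPM in WT replicates 1 to 5. All Ezh2-deficient libraries lay above all WT libraries, with replicate 4 the nearest to them. That library also had the most Cd8a of its group, 79.9 CPM, and with Cd8a as a covariate the change was 1.09 (adjusted p = 0.00131). The means were 36.2 ± 8.24 and 16.1 ± 2.37 CPM, a 2.24-fold rise (log2 fold change 1.16, SE 0.16, adjusted p = 0.000526). All 19 alternatives called it (1.03 to 1.28), and it was at 1.28 without Ezh2-deficient replicate 4.

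Klf10, the TGF-beta-inducible factor that is known to activate Foxp3 (chromosome 15, 38291463 to 38300706), was at 83.0, 58.0, 56.4 and 65.5 CPM in Ezh2-deficient and at 69.5, 61.0, 73.4, 57.1 and 51.3 CPM in WT libraries. The groups overlapped apart from Ezh2-deficient replicate 1, which was the highest of the 9. The log2 fold change was 0.07 (95% interval -0.21 to 0.36, adjusted p = 0.727), and without Ezh2-deficient replicate 1 it was -0.08.

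Klf11, the close relative of Klf10 (chromosome 12, 24651274 to 24662789), lay within 23.5 to 26.6 CPM with Ezh2 deleted, at 26.6, 25.4, 26.6 and 23.5 CPM. The WT libraries spread more widely, at 40.9, 36.3, 28.9, 24.0 and 31.3 CPM. Of the WT libraries, replicate 4 alone fell among the Ezh2-deficient values. The log2 fold change of -0.34 (95% interval -0.64 to -0.04) missed the threshold after adjustment (adjusted p = 0.0941), and without WT replicate 4 it was -0.43 (adjusted p = 0.029, with 0.029 to 0.171 over all alternatives).

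Klf13, which is known to activate the chemokine gene Ccl5 late in T cell activation (chromosome 7, 63886351 to 63938915), was at 252, 260, 285 and 282 CPM in Ezh2-deficient and at 239, 224, 207, 222 and 314 CPM in WT libraries. Every Ezh2-deficient library lay above WT replicates 1 to 4 and below WT replicate 5. The log2 fold change of 0.16 (95% interval -0.08 to 0.40) did not pass (adjusted p = 0.32). Without WT replicate 5 it was 0.26 (adjusted p = 0.0256, with 0.0256 to 0.637 over all alternatives), and without WT replicate 3 it was 0.08.

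**Figure D3:**
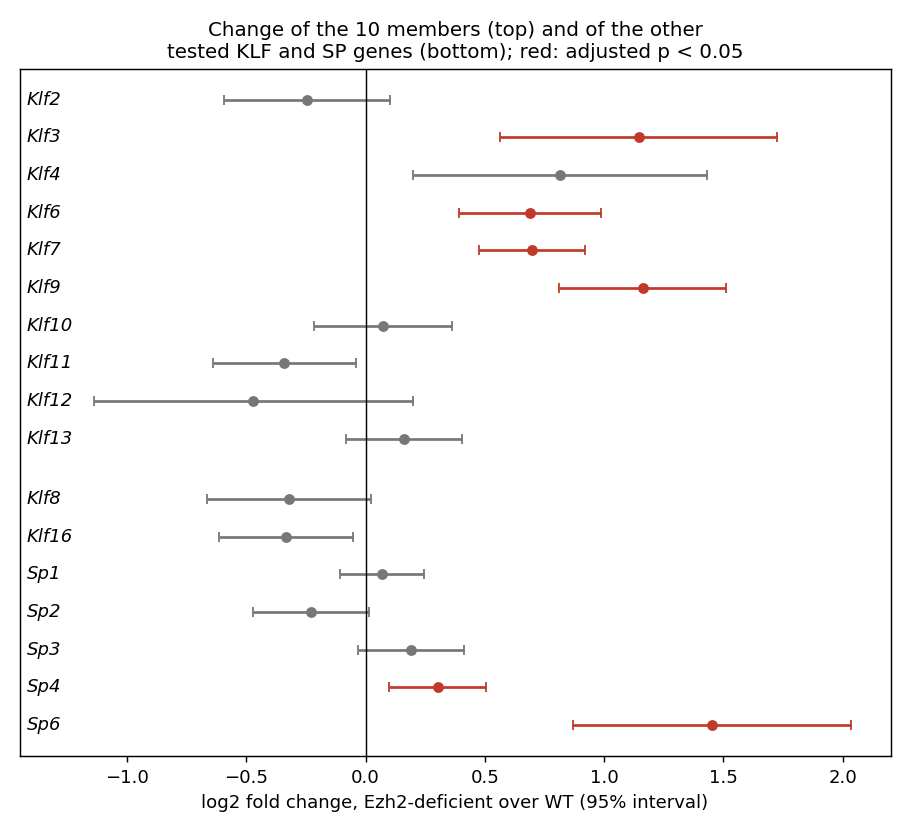
Log2 fold change of Ezh2-deficient over WT with its 95% interval for the 10 members above and the other tested KLF and SP genes below, in red where the adjusted p is under 0.05. Klf3, Klf6, Klf7 and Klf9 lie at 0.69 to 1.16, Klf4 at 0.81 did not pass, and Sp6 at 1.45 is the farthest from 0.

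Of the 7 other Kruppel-like factor genes, 2 were expressed enough to be tested, and edgeR called 0 of them (1 at an unadjusted p under 0.05, 0 in DESeq2 and in limma-voom). Klf8, a CtBP-binding repressor, was at 8.01 ± 0.737 against 9.99 ± 1.97 CPM (-0.32 on the log2 scale, adjusted p = 0.162). Klf16 was at 25.7 ± 1.72 against 32.3 ± 5.95 CPM (-0.33, adjusted p = 0.0826), and passed in 3 of 19 alternatives, at -0.41 without WT replicate 1 (adjusted p = 0.0404) and with the hypoxia and Cd8a covariates (adjusted p = 0.0269 and 0.0491). The erythroid factor Klf1 had 3 counts with Ezh2 deleted and 20 in WT cells, and Klf5, an epithelial member, 46 and 39. Klf14, Klf15 and Klf17 had 0 counts in all 9 libraries.

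Among the 9 Sp genes, 5 were tested, of which 2 rose and none fell, beside 13.1% and 8.8% of all genes tested (0 lower at an unadjusted p under 0.05, in DESeq2 and in limma-voom). Sp6, known for tooth and skin development, was at 11.4, 17.9, 22.6 and 12.5 CPM in Ezh2-deficient replicates 1 to 4 and at 4.67, 9.87, 5.14, 5.32 and 4.51 CPM in WT replicates 1 to 5. The groups did not overlap, and WT replicate 2 stood above the other WT libraries. The change was larger than that of any of the 10 members (log2 fold change 1.45, SE 0.27, adjusted p = 0.00315), though its difference from them was not tested. Its exons overlap Gm11532 on the other strand, with 186 counts in all. Sp4 rose to 80.3 ± 6.88 from 65.1 ± 6.78 CPM (0.30, adjusted p = 0.0368), which was lost when any of WT replicates 3 to 5, or Ezh2-deficient replicate 1, 3 or 4, was left out (0.24 to 0.31, adjusted p = 0.0528 to 0.135). The Sp4 call was also lost with the replicate block (adjusted p = 0.0746), with no filter on low counts (adjusted p = 0.0553) and with the sex covariate (adjusted p = 0.0536). The broadly expressed Sp1 and Sp3, at 340 ± 26.1 against 324 ± 24.2 CPM and 283 ± 21.0 against 248 ± 34.1 CPM, did not pass (log2 fold change 0.07 and 0.19), nor did Sp2 (-0.23).

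Regulators upstream of Kruppel-like factors were called higher more often than lower. Of 18 genes that control Klf2 or Klf10 transcription or the stability of the proteins, 8 rose and 1 fell, beside 13.1% and 8.8% of all genes tested, and their median log2 fold change was 0.20. Mef2a, a MEF2 factor, was at 157, 140, 176 and 161 CPM in Ezh2-deficient and at 88.9, 88.2, 70.3, 74.6 and 80.8 CPM in WT libraries (log2 fold change 0.98, SE 0.09, adjusted p = 5.53e-05). The Ezh2-deficient values of Mef2a were all above the WT values. Mef2d, at 228 against 211 CPM, and Mef2c, at 1.09 against 1.45 CPM, did not pass (adjusted p = 0.226 and 0.439). Klf2, whose promoter stretch above holds the MEF2-like sequence, overlapped between the groups. Any link of MEF2 factors to the Klf2 values was not tested. Mapk7, the kinase ERK5 that acts on MEF2 factors, did not pass at 32.7 ± 4.52 against 41.7 ± 8.11 CPM (-0.35, adjusted p = 0.09). Wwp1, a ubiquitin ligase known to target Klf2 and Klf5, rose to 112 ± 6.97 from 67.9 ± 11.9 CPM (0.72, adjusted p = 0.00161). Fbxw7, Smurf1 and Itch, which encode further ubiquitin ligase components, rose by 0.48, 0.33 and 0.36 (adjusted p = 0.0117, 0.00651 and 0.0145), and Foxo3 by 0.41 (adjusted p = 0.00787). Foxo1 (0.20) and Map2k5 (-0.09) did not pass (adjusted p = 0.132 and 0.452). On the TGF-beta side, Smad3 rose to 161 ± 23.8 from 74.1 ± 10.1 CPM (1.12, adjusted p = 0.000104) and the receptor gene Tgfbr2 by 0.35 (adjusted p = 0.00456), while the ligand gene Tgfb1 fell by 0.59 (adjusted p = 0.00407). Smad2 (0.19), Smad4 (0.19), Smad7 (0.17) and Tgfbr1 (0.04) did not pass (adjusted p = 0.218, 0.0737, 0.301 and 0.777), although the groups did not overlap for Smad4.

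**Figure D4:**
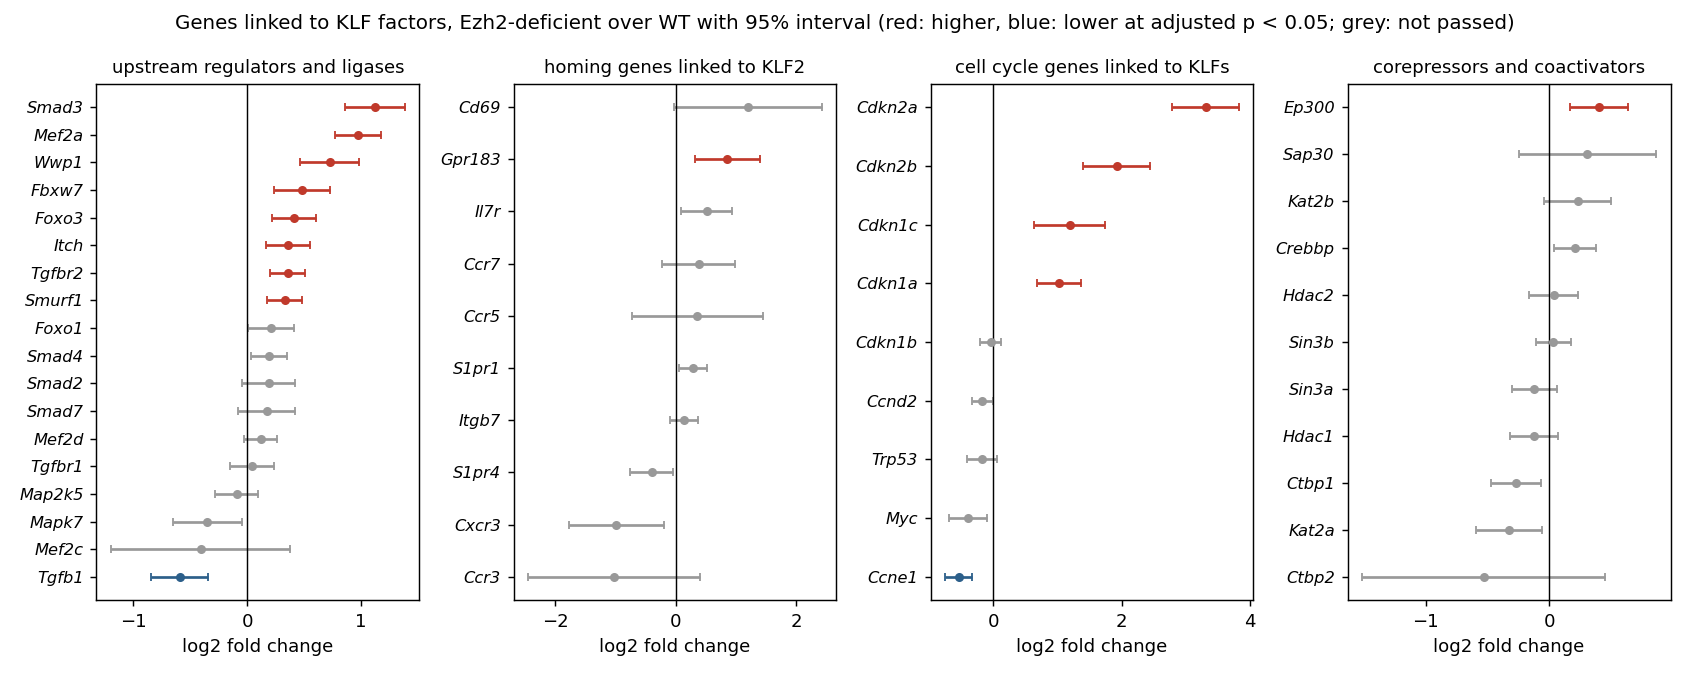
Log2 fold change of Ezh2-deficient over WT with its 95% interval for the tested genes of 4 lists linked to Kruppel-like factors, red where higher, blue where lower and grey where the adjusted p missed 0.05. Smad3 and Mef2a lead the upstream regulators at 1.12 and 0.98, Gpr183 alone passed among the homing genes at 0.86, and Ep300 alone passed among the partner proteins.

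Of 10 homing genes linked to Klf2, 1 rose and 0 fell, which is near the 13.1% and 8.8% of all genes tested (2 lower at an unadjusted p under 0.05, 1 in DESeq2 and 0 in limma-voom), and their median log2 fold change was 0.32. S1pr1, the receptor for exit from lymphoid tissue, was at 665, 615, 673 and 714 against 547, 545, 459, 504 and 677 CPM (0.29, adjusted p = 0.068). WT replicate 5 alone stood among the Ezh2-deficient values, and without it S1pr1 was at 0.36 (adjusted p = 0.0104, with 0.0104 to 0.193 over all alternatives). S1pr1 also passed with the replicate block (0.38, adjusted p = 0.0268) and the Cd8a covariate (0.35, adjusted p = 0.0319). Gpr183, an oxysterol receptor, rose by 0.86 (adjusted p = 0.0296), which was lost when WT replicate 3 or 4, or any of Ezh2-deficient replicates 1 to 3, was left out (0.73 to 0.84, adjusted p = 0.0594 to 0.0895). The Gpr183 call was also lost with no filter on low counts (adjusted p = 0.0804) and with the Cd8a covariate (adjusted p = 0.065). Il7r, the interleukin-7 receptor gene, was at 57.1 ± 12.5 against 39.8 ± 10.4 CPM (0.52, adjusted p = 0.0738), and without WT replicate 5 the change was 0.61 (adjusted p = 0.0437, with 0.0399 to 0.239 over all alternatives). Il7r also passed in DESeq2 (0.50, adjusted p = 0.0399). Cxcr3 was at 5.04 ± 3.23 against 10.03 ± 2.65 CPM (-0.98, adjusted p = 0.0717). With Ezh2-deficient replicate 4 left out, the change was -1.55 (adjusted p = 0.00302, with 0.00302 to 0.15 over all alternatives). Cxcr3 also passed in DESeq2, with the replicate block (-1.04, adjusted p = 0.0106) and with the hypoxia and Cd8a covariates (adjusted p = 0.0153 to 0.0269 in DESeq2 and these covariate fits).

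Of 9 tested cell cycle genes linked to Kruppel-like factors, 4 rose and 1 fell, beside 13.1% and 8.8% of all genes tested. DESeq2, the replicate block, the hypoxia, Cd8a and sex covariates and the fit without WT replicate 5 called 2 lower. Cdkn1a, which encodes p21 and is known as a target of Klf4 and Klf6, rose by 1.03 on the log2 scale, from 124 ± 26.2 to 252 ± 33.3 CPM (adjusted p = 0.00108). Cdkn2a, Cdkn2b and Cdkn1c rose by 3.31, 1.92 and 1.19 (adjusted p = 7.44e-06, 0.000282 and 0.00675), and Ccne1, which encodes cyclin E1, fell by 0.53 (adjusted p = 0.00256). Of the 11 corepressors and coactivators, 1 was called higher and 0 lower, near the 13.1% and 8.8% of all genes tested (2 lower at an unadjusted p under 0.05, 2 in DESeq2 and 0 in limma-voom). Ep300, the acetyltransferase p300, rose to 514 ± 42.9 from 389 ± 57.3 CPM (0.40, adjusted p = 0.0204), which was lost when WT replicate 2, or any of Ezh2-deficient replicates 2 to 4, was left out (0.35 to 0.37, adjusted p = 0.0535 to 0.0839). Ctbp1, the partner of Klf3, Klf8 and Klf12, was at 213 ± 23.6 against 256 ± 23.3 CPM (-0.27, adjusted p = 0.0557, with 0.0113 to 0.11 over all alternatives). It passed in 9 of 19 alternatives, which were both other scalings, no filter on low counts, DESeq2, the replicate block (-0.31, adjusted p = 0.0492), the hypoxia and Cd8a covariates, and the fits without Ezh2-deficient replicate 2 (-0.36, adjusted p = 0.0203) and without WT replicate 5 (-0.32, adjusted p = 0.027). Crebbp (0.21) and Kat2a (-0.32) did not pass (adjusted p = 0.0683 and 0.075). Kat2a was lower in every Ezh2-deficient than in any WT library. It passed in 3 of 19 alternatives (adjusted p = 0.00706 to 0.141 over all of them), and Crebbp in 0.

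The genes most like the 3 members with the smallest p were sought among 9542 protein-coding genes with a mean of at least 5 CPM, by Pearson's r of log2 CPM over the 9 libraries, which share the group difference. For Klf9 these were Usp3, Arhgap35 and Znrf3 (r = 0.980, 0.978 and 0.978), for Klf7 Trp53inp1, Exoc4 and Ube2h (r = 0.994, 0.985 and 0.985), and for Klf6 Selenop, Dpp4 and Cited2 (r = 0.983, 0.978 and 0.975). After the group means were taken out, the r of these 9 genes with their member was 0.877 to 0.967. They are the most similar of 9542 candidates, so high values are built into the choice.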

How the data were processed

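The authors deposited whole-number counts per Ensembl gene, not normalized, from stranded mRNA libraries per the labels' protocols. STAR and GRCm38 are named in the submitters' processing notes, while the sources used here name neither the counting tool nor its strand setting. Positions, biotypes and exon lengths came from GENCODE M21 on GRCm38, which held 42548 of the 43432 identifiers. Libraries of a group differed beyond sampling noise (chi-square per degree of freedom of at least 23.6), which cannot tell separate mice from repeat cultures. Each counted as a replicate, and the design text calls them biological replicates.

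Genes were filtered with edgeR's default on low counts, scaled by TMM factors, then tested with the robust quasi-likelihood F-test (edgeR 4.0.16, R 4.3.3), two-sided, with Benjamini-Hochberg adjustment over all 13685 genes and a threshold of 0.05. SE is the log2 fold change divided by the square root of F, and intervals are 95%. CPM are scaled by the same factors. Log2 CPM used a prior count of 2. Reads carry no molecular identifiers. The test was tried on simulated counts. Alternatives used DESeq2 1.42.0, limma 3.58.1, other scalings, filters and covariates, and each library left out.

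The members and lists were chosen with earlier results of these data known. Named genes were the 10 members, tested KLF and SP genes, the 4 smallest p of each linked list and the genes most like 3 members. Mapk7, Map2k5, Mef2c, Mef2d, Fbxw7, Smurf1, Itch, Foxo1, Foxo3, Smad2, Smad4, Smad7, Tgfbr1, Tgfbr2 and Cdkn1c were added after their values were seen. Protein sequences were not used here. 1 gene of the homing list is not reported here and was left out of its counts.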

Additional observations from a re-analysis of the deposited data

Results flagged for a closer look

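In 2 of the 68 groups of values examined for a library far from the rest, the gap was beyond Dixon's 95% critical value, where chance alone flags about 1 in 20. Klf3 was at 99.7 CPM in WT replicate 5, and the next WT library was at 48.5 CPM. Sp6 was at 9.87 CPM in WT replicate 2, and the next WT library was at 5.32 CPM.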

How the results depend on the processing

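Over 19 alternatives, 184 of 190 values of the 10 members kept their direction and their side of the threshold. The calls of Klf3, Klf6, Klf7 and Klf9 held in all 19. Calls were gained for Klf4 in DESeq2 and without Ezh2-deficient replicate 4, for Klf11 without WT replicate 4 and for Klf13 without WT replicate 5. Klf10, which was not called, ranged from -0.081 to 0.12 on the log2 scale when 1 library was left out, and was at -0.081 without Ezh2-deficient replicate 1 and -0.0029 without WT replicate 5. With 1 library left out, 4 to 5 members were called higher and 0 to 1 lower, and of all genes 1170 to 1744 higher and 802 to 1477 lower, against 1797 and 1204 in all 9 libraries. DESeq2 called 1868 genes lower and the fit with Cd8a as a covariate 1938, where the cause was not tested. With the replicate number as a block, 1635 genes were higher and 1116 lower, and the same 4 members were called (Klf3 at 1.47, Klf6 at 0.73, Klf7 at 0.72 and Klf9 at 1.17). Same-numbered libraries correlated at -0.083 to 0.187 and, of the 4 Ezh2-deficient libraries, none correlated best with its own number, while WT replicate 1 did. They were taken to share only a number. A covariate for sex was chosen after seeing the data. Low counts limit Klf4 and Klf12.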
